A study of Mus musculus with 13 samples.

Results

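Doxorubicin (DOX) was compared with no DOX in cells that were all exposed to IL-17A. DOX is an anthracycline that inserts into DNA and traps topoisomerase II on it, which leaves DNA breaks, and IL-17A is a T cell cytokine that signals through the receptor chains *Il17ra* and *Il17rc* to raise chemokines and acute phase genes. The cells were 4T1-Thy1.1, a BALB/c mouse mammary carcinoma line that carries a Thy1.1 transgene. The members were chosen by condition label and were 6 of the 13 libraries of the series, 3 from cells given 200 ng/mL DOX and 25 ng/mL recombinant mouse IL-17A together (DOX+IL-17A, replicates 2, 3 and 5) and 3 from cells given 25 ng/mL IL-17A alone (IL-17A, replicates 2, 3 and 5). Treatment lasted 48 hours in culture wells, and RNA was taken from the lysed wells. The other 7 libraries, 3 of untreated cells (control) and 4 of cells given DOX alone, were used for the spread between libraries and to set the DOX effect with IL-17A beside the DOX effect without it. All libraries came from a single line, and nothing in the labels says that replicates were separate cultures, so the p-values measure only the spread between these libraries, which may be technical.

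Reads came from the 3′ ends of poly(A) transcripts, and each value (unit) is a gene's reads divided by a library size that TMM had scaled to correct for RNA composition. The 6 libraries held 4445592 to 16152120 reads on listed genes, and 3 reads, taken as the smallest detectable amount, equalled 0.187 to 0.613 units, a limit that covers counting error only. On the first principal component of these 6 libraries (46.7% of the variance) the DOX+IL-17A libraries lay between -48.4 and -29.7 and the IL-17A libraries between 27.4 and 54.4. The second component (23.2%) set both replicate 5 libraries (-44.4 and -35.2) apart from the other 4 (4.88 to 30.0), so the main counts are also given without them. *Epcam*, *Krt7*, *Krt8* and *Krt18*, epithelial genes that 4T1 cells express, were at 81.4 units or more in all 6 libraries, and *Cdh1*, which encodes E-cadherin, was at 9.43 to 19.0. Summed markers of red blood cells (0 to 3.89) and liver (0.298 to 6.13) stayed low, and those of muscle (10.9 to 25.2) and immune cells (19.5 to 46.8) overlapped between the groups. The marker list of fibroblasts and endothelium summed to 8.84 to 18.8 with DOX+IL-17A and 17.5 to 25.6 with IL-17A.

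In cells exposed to IL-17A, DOX raised 606 genes and lowered 606 of the 12319 tested (limma on log2(value + 1), adjusted p under 0.05 and fold change above 2), which is 4.92% in each direction and 9.84% in all. The fit with a replicate block called 679 higher (5.51%) and 678 lower (5.5%). Of the 606 genes in each direction, 75 rose and 83 fell by more than 4-fold. The 3 libraries of each group did not overlap for 602 of the risers and 598 of the fallers. Over all 12319 genes, called or not, 2026 (16.4%) did not overlap with DOX+IL-17A higher and 1913 (15.5%) with it lower. When libraries were scaled by size alone 1017 genes rose and 381 fell, so that 72.7% of called genes were higher, where TMM gave equal numbers, and the median log2 fold change of all genes moved from 0.02 to 0.22. Without both replicate 5 libraries 287 genes rose and 342 fell. The count also depended on single libraries, with 295 up and 394 down without IL-17A replicate 3, 391 and 378 without IL-17A replicate 5, 400 up without DOX+IL-17A replicate 2 and 403 up without DOX+IL-17A replicate 3. It was higher, at 813 up and 776 down, without control replicate 1, which enters this comparison only through the shared spread.

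The genes that rose most among well expressed genes held an acute phase gene, chemokines and secreted or surface signals. *U90926* (mm10, chromosome 5, 92209893 to 92215408, minus strand) was at 45.4, 44.4 and 51.9 with DOX+IL-17A and 0.113, 0.629 and 0 with IL-17A (log2 fold change 5.30, SE 0.36, adjusted p = 1.6e-06, limma). It was therefore close to the detection limit without DOX and at a narrow range of levels with it. *Saa3* (chromosome 7, 46711998 to 46715700, minus strand), an acute phase serum amyloid gene, was at 138, 37.8 and 74.2 with DOX+IL-17A and 5.52, 0.472 and 0.164 with IL-17A (log2 fold change 5.05, SE 0.76, adjusted p = 0.00107). The DOX+IL-17A libraries varied several-fold for *Saa3*. The lowest of them was above the highest IL-17A library, as the rule that chose the leading genes required. *Edn1*, the gene of the vasoconstrictor endothelin, went from 7.13 ± 0.853 with IL-17A to 83.1 ± 12.3 with DOX+IL-17A (SD, n = 3 each, log2 fold change 3.37, SE 0.28, adjusted p = 1.41e-05). *Jag1*, a ligand of Notch receptors, was at 137, 219.6 and 124 with DOX+IL-17A and 24.2, 36.9 and 11.3 with IL-17A (log2 fold change 2.78, SE 0.32, adjusted p = 0.000164). *Selp*, which encodes the adhesion molecule P-selectin, was at 76.5, 49.9 and 36.95 with DOX+IL-17A and 20.3, 5.19 and 2.63 with IL-17A (log2 fold change 2.76, SE 0.50, adjusted p = 0.00291). *Slc25a25*, a mitochondrial ATP-Mg carrier, and *Bcl2l15*, of the Bcl-2 family, rose by 2.92 and 2.96 on the log2 scale, and *Plekhs1* rose by 3.75. *Ccl20* and *Cxcl2*, the other genes among the 10 that rose most, are described with the cytokines.

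The 10 genes that fell most included *Adm*, *Car9* and *Aldoc*, which hypoxia can induce, and 5 histone genes. *Adm* (chromosome 7, 110627661 to 110629820, plus strand), which encodes the hypoxia-induced peptide adrenomedullin, was at 0, 1.19 and 2.43 with DOX+IL-17A and 22.8, 43.7 and 63.01 with IL-17A (log2 fold change -4.38, SE 0.53, adjusted p = 0.000205). The lowest IL-17A library held more *Adm* than any DOX+IL-17A library, as the rule that chose these genes required. *Aldoc* (chromosome 11, 78322968 to 78327781, plus strand), the brain-type aldolase of glycolysis, was at 2.66, 2.78 and 5.37 with DOX+IL-17A and 57.6, 70.3 and 88.8 with IL-17A (log2 fold change -4.02, SE 0.41, adjusted p = 6.09e-05). *H1f0*, a linker histone made outside S phase, was at 42.9, 29.7 and 20.2 with DOX+IL-17A and 239.7, 392 and 391 with IL-17A (log2 fold change -3.45, SE 0.31, adjusted p = 2.6e-05). *Sspn*, a component of the dystrophin complex, went from 92.8 ± 36.2 with IL-17A to 9.85 ± 1.37 with DOX+IL-17A (SD, n = 3 each) and *Espn*, an actin-bundling protein, from 62.2 ± 46.98 with IL-17A to 5.46 ± 0.613 with DOX+IL-17A. The log2 fold changes of *Sspn* and *Espn* were -3.05 and -2.98, and the same rule required their groups to be apart. *Car9*, *Hist1h1e*, *Hist1h1c*, *Hist1h2ah* and *Hist1h2ac* completed the 10 that fell most.

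**Figure D1:**
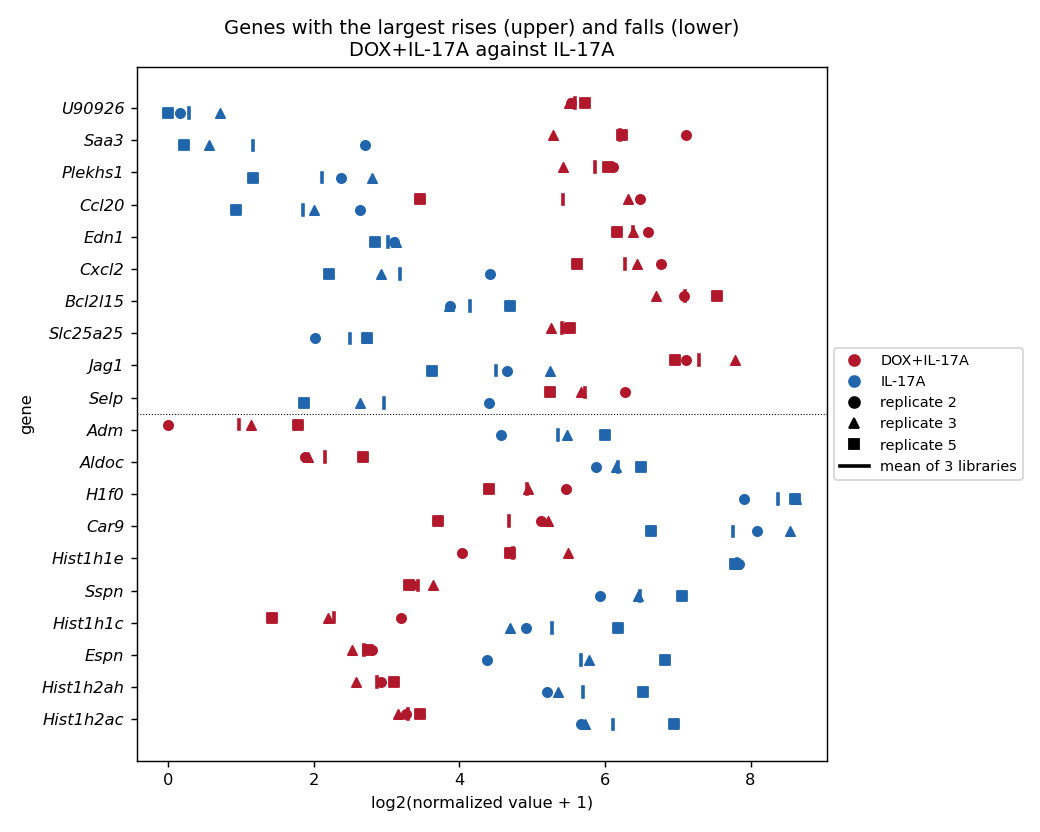
Level of the 10 genes that rose most and the 10 that fell most, as log2(normalized value + 1) on the horizontal axis, for each DOX+IL-17A library (red) and each IL-17A library (blue); marker shapes are replicates and vertical ticks are means of 3 libraries. For each of the 20 genes the red and blue points do not overlap, as the rule that chose them required, and *Ccl20* has 1 red point, replicate 5, well below the other red points.

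Many cytokine and chemokine genes rose under DOX in cells exposed to IL-17A. Of 28 tested, 11 rose and 3 fell (50% called, against 9.84% of all genes). The median log2 fold change was 1.55 against 0.02 over all genes tested. *Il6*, which encodes the inflammatory cytokine interleukin-6, was listed at 0 in the 3 IL-17A libraries and at 9.41, 19.2 and 7.49 with DOX+IL-17A. Against a floor of 3 reads in each IL-17A library it was at least 34.2-fold higher (adjusted p = 7.38e-05, limma). *Ccl20*, a chemokine that draws CCR6-positive lymphocytes, was at 87.9, 78.6 and 9.99 with DOX+IL-17A and 5.18, 2.99 and 0.902 with IL-17A (log2 fold change 3.57, SE 0.78, adjusted p = 0.00871). *Ccl20* in DOX+IL-17A replicate 5 was thus far below the other DOX+IL-17A libraries. It was above all IL-17A libraries, as the rule for the genes that rose most required. With voom the adjusted p of *Ccl20* was 0.0743. *Cxcl2*, a neutrophil chemokine, was at 108, 85.7 and 48.1 with DOX+IL-17A and 20.5, 6.602 and 3.61 with IL-17A (log2 fold change 3.09, SE 0.56, adjusted p = 0.00294). *Cxcl10*, a T cell chemokine that interferon induces, was at 79.5, 29.5 and 22.03 with DOX+IL-17A and 13.9, 6.76 and 3.28 with IL-17A (log2 fold change 2.28, SE 0.47, adjusted p = 0.00669). *Tnf*, *Csf2*, *Cxcl16* and *Ccl2* also rose. *Il33*, *Cxcl11* and *Il23a* were called higher with less support. *Il33* lost its call with voom (adjusted p = 0.0802), edgeR (0.153), DESeq2 (0.0858) and a pseudocount of 0.1 (0.135), and in 7 of the 13 fits that each omitted a library (leave-one-out fits, up to 0.146). *Cxcl11* lost it with voom (0.118) and without DOX+IL-17A replicate 2 or 3 or IL-17A replicate 2 or 3 (up to 0.0719), and *Il23a* without DOX+IL-17A replicate 2 or 3 or IL-17A replicate 3 or 5 (up to 0.125). The neutrophil chemokine *Cxcl1* was at 1000.4, 724 and 384 with DOX+IL-17A and 588, 169.8 and 44.1 with IL-17A, groups that overlapped, and did not pass (log2 fold change 1.98, adjusted p = 0.103). *Il1b*, the gene of interleukin-1β, fell from 9.14 ± 1.95 with IL-17A to 1.86 ± 0.8097 with DOX+IL-17A (log2 fold change -1.85, SE 0.36, adjusted p = 0.00488), and *Vegfa*, the angiogenic growth factor, fell from 52.2 ± 12.4 with IL-17A to 17.05 ± 5.199 with DOX+IL-17A (log2 fold change -1.58, SE 0.29, adjusted p = 0.00313). *Il18* was called lower too, with an adjusted p of 0.0203 that was 0.0796, 0.0572 and 0.0901 without DOX+IL-17A replicate 2, IL-17A replicate 3 and IL-17A replicate 5. Without both replicate 5 libraries 9 cytokine genes rose and 2 fell.

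The proximal promoters of *Il6* and *Ccl20* are shown because κB motifs, the sites of NF-κB, lie close to their starts. The motif was searched as GGG, any pair of bases and TTTCC on both strands in windows from 250 bases before to 50 bases after the start of each gene (RefSeq, GRCm38.p6), where 7 of the 18 cytokine genes with a window held it against 1.62% of 27025 genes. Of the members called, 10 had a window and 3 held a match (*Il6*, *Ccl20* and *Cxcl2*), a smaller share than in the whole list. A match describes the letters and says nothing of binding. The 150 bases before each start are given 5′ to 3′ on the gene's strand, with the match in capitals.
Il6, chr5:30012964-30013113, plus strand: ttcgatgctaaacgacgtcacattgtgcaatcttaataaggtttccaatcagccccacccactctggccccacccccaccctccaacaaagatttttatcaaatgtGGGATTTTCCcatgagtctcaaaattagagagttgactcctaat
Ccl20, chr1:83116616-83116765, plus strand: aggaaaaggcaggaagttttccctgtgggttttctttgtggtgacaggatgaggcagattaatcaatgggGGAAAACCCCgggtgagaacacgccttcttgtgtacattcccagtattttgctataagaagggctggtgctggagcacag

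The receptor chains of IL-17A itself were not called. *Il17ra* was at 39.1, 35.6 and 58.9 with DOX+IL-17A and 34.9, 22.5 and 42.4 with IL-17A (log2 fold change 0.42, adjusted p = 0.382) and *Il17rc* at 18.2, 7.75 and 10.2 with DOX+IL-17A and 5.41, 8.33 and 18.2 with IL-17A (0.24, adjusted p = 0.741), groups that overlapped for both receptor chains. Of 18 receptor, adaptor and target genes tested, *Saa3* and *Cebpd* rose (11.1% called, near the 9.84% of all genes), with a median of 0.58. *Cebpd*, a transcription factor of the acute phase, was at 134, 80.1 and 49.1 with DOX+IL-17A and 37.7, 12.3 and 6.15 with IL-17A (log2 fold change 2.41, SE 0.59, adjusted p = 0.0158), and its adjusted p was 0.0724 without DOX+IL-17A replicate 2, 0.0592 without IL-17A replicate 3 and 0.0717 without IL-17A replicate 5. *Lcn2*, a classical IL-17A target, was at 150.3, 66.2 and 47.1 with DOX+IL-17A and 84.7, 25.3 and 24.3 with IL-17A (1.03, adjusted p = 0.444) and did not pass. Among 25 NF-κB subunits, inhibitors and feedback genes, *Nfkbib* and *Icam1* rose, and the share called, 8%, was near that of all genes (9.84%). *Nfkbib*, an inhibitor that holds NF-κB in the cytoplasm, went from 37.01 ± 4.08 with IL-17A to 131 ± 12.5 with DOX+IL-17A (log2 fold change 1.80, SE 0.18, adjusted p = 6.09e-05), and the adhesion gene *Icam1* from 2.71 ± 0.515 with IL-17A to 15.6 ± 2.17 with DOX+IL-17A (log2 fold change 2.17, SE 0.40, adjusted p = 0.00329), though with a pseudocount of 0.1 its adjusted p was 0.0516. The other inhibitor *Nfkbia* was at 968, 1095 and 832 with DOX+IL-17A and 899, 759.9 and 565 with IL-17A (0.40, adjusted p = 0.403).

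Interferon-stimulated genes, the antiviral program that type I interferon induces, rose in part. Of 49 tested, 21 rose and none fell (42.9% called, against 9.84% of all genes), with a median log2 fold change of 0.996. *Ifi44* was at 80.2, 53.4 and 60.05 with DOX+IL-17A and 17.01, 14.5 and 7.55 with IL-17A (log2 fold change 2.27, SE 0.35, adjusted p = 0.00126). *Zbp1*, a sensor of left-handed nucleic acid that can start necroptosis, was at 30.5, 32.6 and 25.7 with DOX+IL-17A and 6.31, 5.502 and 6.48 with IL-17A (log2 fold change 2.10, SE 0.32, adjusted p = 0.0012), a narrow range in both groups. *Ifit3b* went from 2.63 ± 0.961 with IL-17A to 14.9 ± 5.84 with DOX+IL-17A (log2 fold change 2.10, SE 0.47, adjusted p = 0.0101), a call that voom (adjusted p = 0.0575) and the fit without both replicate 5 libraries (0.0671) did not make, and that belongs to a family of similar genes among which reads could be split. *Bst2*, the tetherin that holds virions on the cell surface, was at 71.98, 36.2 and 16.7 with DOX+IL-17A and 4.84, 4.87 and 13.1 with IL-17A (log2 fold change 2.21, SE 0.50, adjusted p = 0.0104), with an adjusted p of 0.053 without DOX+IL-17A replicate 2. *Isg15*, the ubiquitin-like modifier, chosen after its values were seen, was at 139.9, 79.4 and 51.2 with DOX+IL-17A and 39.7, 28.5 and 11.1 with IL-17A (log2 fold change 1.79, SE 0.41, adjusted p = 0.0108), with an adjusted p of 0.0547 without DOX+IL-17A replicate 2. That library held the highest value of *Ifi44*, *Ifit3b*, *Bst2* and *Isg15*, and without it 12 of the 49 genes rose, while without both replicate 5 libraries 15 did. *Rsad2*, the antiviral enzyme viperin, was at 71.2, 25.3 and 30.1 with DOX+IL-17A and 18.9, 23.3 and 17.6 with IL-17A and did not pass (0.90, adjusted p = 0.0894). Of 24 genes of interferon signaling and nucleic acid sensing, only the kinase gene *Tyk2* was called (4.17%), lower (-1.19, adjusted p = 0.0439). That call was lost in 9 of the 13 leave-one-out fits (adjusted p up to 0.171).

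The promoter of *Isg15* is shown for its interferon-stimulated response elements. The motif, GAAA and GAAA with any pair of bases between them on either strand, was present in the window of 19 of the 36 interferon-stimulated genes with a window and of 9 of the 15 called members with one, against 3.49% of 27025 genes. *Isg15* held 3 overlapping matches, the first 78 bases before the start.
Isg15, chr4:156200819-156200968, minus strand: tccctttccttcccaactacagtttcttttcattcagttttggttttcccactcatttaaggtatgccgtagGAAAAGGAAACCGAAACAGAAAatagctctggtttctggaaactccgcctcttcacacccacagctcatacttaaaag

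**Figure D2:**
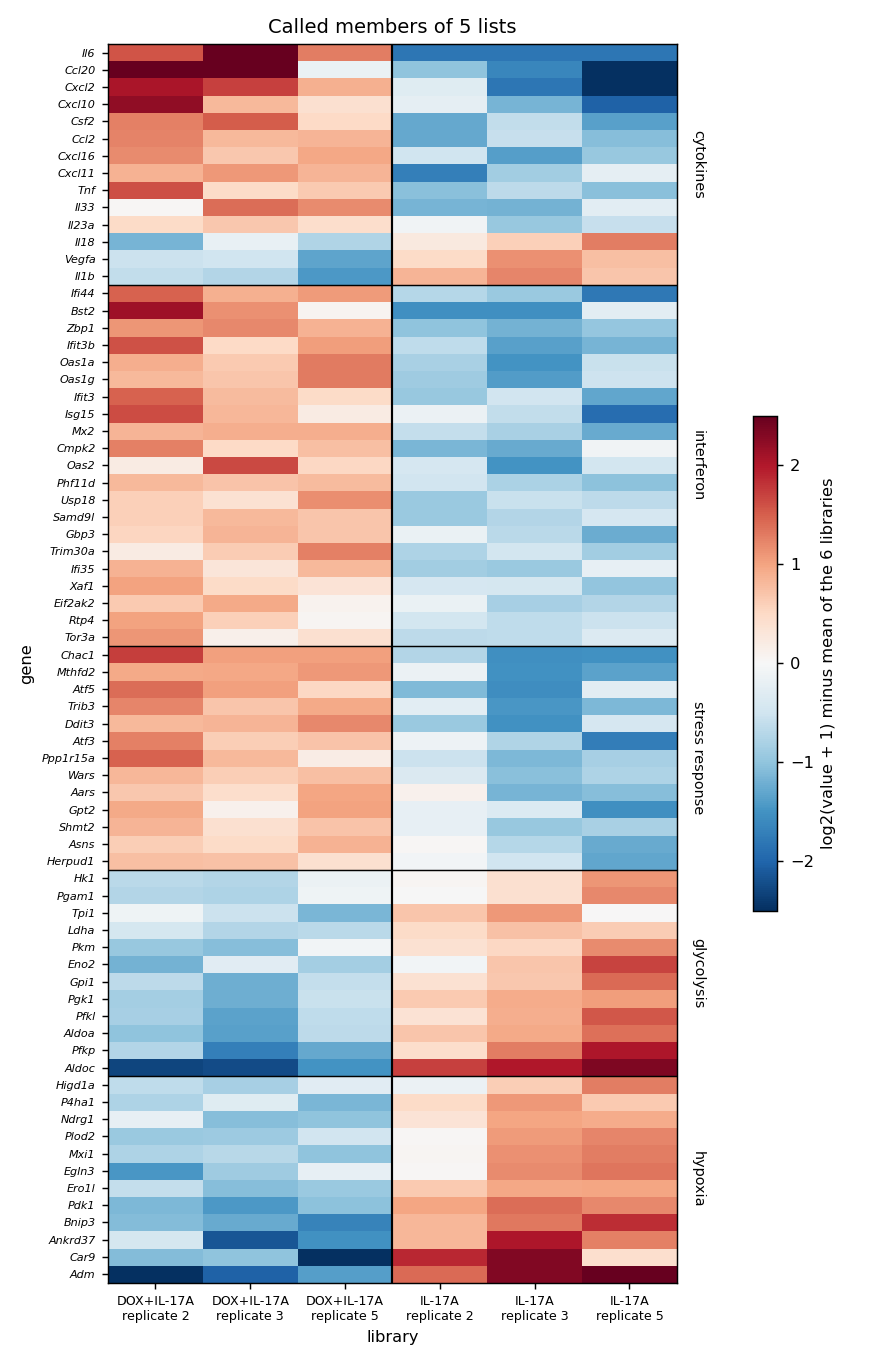
Level of the 72 called members of the cytokine, interferon, integrated stress response, glycolysis and hypoxia lists in each of the 6 libraries, as log2(value + 1) minus the gene's mean over the 6 (rows are genes, columns are libraries, and the color scale ends at 2.5 in either direction). Red marks values above the mean and blue below, and the black vertical line parts the DOX+IL-17A libraries (left) from the IL-17A libraries (right).

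Genes of MHC class I presentation were not called, and 3 of the immune ligands were. Of 24 MHC class I presentation genes 0 were called by limma, voom, edgeR or DESeq2 (median 0.14), and 4 had an unadjusted p under 0.05 in limma. *B2m*, the light chain of MHC class I, was at 1924, 1258 and 737 with DOX+IL-17A and 737, 728 and 570.1 with IL-17A (0.85, adjusted p = 0.0896), and *Pdia3*, a chaperone of the loading complex, at 447, 455 and 446 with DOX+IL-17A and 286, 286 and 346 with IL-17A (0.56, adjusted p = 0.0539). Of 13 immune checkpoint and natural killer ligands, 3 were called higher by limma, 0 by voom, 2 by edgeR and 3 by DESeq2. With the replicate block 2 were called higher, and without both replicate 5 libraries 1 was. The 3 genes were 23.1% of the list, against 9.84% of all genes called in either direction and 4.92% called higher. *Lgals9*, which encodes galectin-9, went from 27.5 ± 6.34 with IL-17A to 57.8 ± 15.2 with DOX+IL-17A (log2 fold change 1.04, SE 0.27, adjusted p = 0.0208), with adjusted p-values between 0.0537 and 0.0885 without DOX+IL-17A replicate 2, DOX+IL-17A replicate 3, IL-17A replicate 2 or IL-17A replicate 3. *Icosl*, a costimulatory ligand, rose by 1.62 on the log2 scale (adjusted p = 0.0418), a call lost in 8 of the 13 leave-one-out fits, those without any of the 6 libraries compared among them (up to 0.121). *Cd274*, the gene of PD-L1, was at 7.98, 5.56 and 6.55 with DOX+IL-17A and 3.27, 2.04 and 2.79 with IL-17A (1.06, adjusted p = 0.0415). A block for the replicate number gave an adjusted p of 0.0521, and the call was missing from 10 of those 13 fits (adjusted p up to 0.151).

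Genes of the integrated stress response, in which phosphorylation of eIF2α favors translation of ATF4 and in turn its target genes, rose in part. Of 39 genes tested, 13 rose and none fell (33.3% called, against 9.84% of all genes, median 0.91). *Chac1*, which degrades glutathione, was at 54.4, 32.9 and 32.96 with DOX+IL-17A and 9.01, 4.72 and 4.84 with IL-17A (log2 fold change 2.52, SE 0.38, adjusted p = 0.00108). *Trib3*, a pseudokinase induced by ATF4, was at 78.5, 54.4 and 65.5 with DOX+IL-17A and 27.5, 11.5 and 14.7 with IL-17A (log2 fold change 1.91, SE 0.32, adjusted p = 0.00191). *Mthfd2*, of mitochondrial folate metabolism, went from 79.7 ± 44.7 with IL-17A to 294 ± 15.9 with DOX+IL-17A (log2 fold change 2.0, SE 0.45, adjusted p = 0.0102), with an adjusted p of 0.0527 without IL-17A replicate 3. *Atf5*, a related transcription factor, rose by 1.95 (adjusted p = 0.0288), but its adjusted p was between 0.0719 and 0.119 without DOX+IL-17A replicate 2 or 3 or IL-17A replicate 2 or 3. *Atf4* itself, which is regulated mainly in translation, was at 6.95, 11.9 and 7.49 with DOX+IL-17A and 3.72, 3.46 and 5.17 with IL-17A (0.92, adjusted p = 0.163). The count of risers was 8 without DOX+IL-17A replicate 2, IL-17A replicate 3 or IL-17A replicate 5, and 6 without both replicate 5 libraries.

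The promoter of *Atf3*, which encodes a transcription factor of this response, is shown for its C/EBP-ATF element. *Atf3*, chosen after its values were seen, was at 34.4, 21.5 and 22.9 with DOX+IL-17A and 12.5, 7.703 and 3.45 with IL-17A (log2 fold change 1.73, SE 0.43, adjusted p = 0.0164), with an adjusted p of 0.0679 without DOX+IL-17A replicate 2 and 0.0717 without IL-17A replicate 5. The letters TGATG, any base and AA, on either strand, were present in 11 of the 32 stress response genes with a window and in 6 of the 12 called members with one, against 4.06% of 27025 genes.
Atf3, chr1:191183334-191183483, minus strand: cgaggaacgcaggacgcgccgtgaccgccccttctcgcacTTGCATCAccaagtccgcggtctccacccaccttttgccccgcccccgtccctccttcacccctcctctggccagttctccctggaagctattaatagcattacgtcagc

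Many glycolysis and hypoxia genes fell. Hypoxia-inducible factor is a transcription factor that, when oxygen is low or its degradation is blocked, raises glycolytic enzymes and genes such as *Car9*, *Bnip3* and *Adm*. Of 20 glycolysis genes tested 12 fell and none rose (60% called, median -1.16). Of 27 genes of the hypoxia-inducible factor and its targets 12 fell and none rose (44.4% called, median -1.12). Over all genes 9.84% were called. The glycolysis fallers were *Hk1*, *Gpi1*, *Pfkl*, *Pfkp*, *Aldoa*, *Aldoc*, *Tpi1*, *Pgk1*, *Pgam1*, *Eno2*, *Pkm* and *Ldha*. With library size scaling *Tpi1* lost its call (adjusted p = 0.071) and *Hk1* and *Pgam1* changed by less than 2-fold, and in a fit of the compared groups alone *Pgam1* (0.0586) and *Eno2* (0.0583) lost theirs. With a library left out calls were lost for *Hk1* without DOX+IL-17A replicate 2 or 3 or IL-17A replicate 5 (up to 0.0838) and for *Tpi1* without DOX+IL-17A replicate 3 or 5 or IL-17A replicate 2 or 3 (up to 0.114). The same held for *Pgam1* without DOX+IL-17A replicate 2 or 3 or IL-17A replicate 3 or 5 (up to 0.108) and for *Eno2* without DOX+IL-17A replicate 2 or 5 or IL-17A replicate 3 or 5 (up to 0.112). *Pfkp*, a phosphofructokinase, was at 27.8, 13.6 and 18.8 with DOX+IL-17A and 63.8, 115 and 194 with IL-17A (log2 fold change -2.49, SE 0.34, adjusted p = 0.000597). *Aldoa* was at 453, 354 and 576 with DOX+IL-17A and 1458, 1759 and 2356 with IL-17A (log2 fold change -2.01, SE 0.23, adjusted p = 0.000164). *Pfkl* went from 376 ± 157 with IL-17A to 97.9 ± 23.6 with DOX+IL-17A (log2 fold change -1.87, SE 0.27, adjusted p = 0.000709). *Hk2*, the inducible hexokinase, was at 201, 194 and 261 with DOX+IL-17A and 264, 385 and 428 with IL-17A and did not pass (-0.70, adjusted p = 0.0604), and *Gapdh* was at 145, 139 and 157 with DOX+IL-17A and 321, 382 and 199 with IL-17A (-0.98, adjusted p = 0.185). The IL-17A libraries of *Pfkp*, *Pfkl* and *Aldoa* were all above the DOX+IL-17A libraries.

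*Bnip3*, a mitophagy receptor, was at 33.3, 29.3 and 21.97 with DOX+IL-17A and 129, 181 and 262 with IL-17A (log2 fold change -2.68, SE 0.27, adjusted p = 6.09e-05). *Ankrd37* was at 4.499, 0.695 and 1.62 with DOX+IL-17A and 12.3, 29.6 and 16.8 with IL-17A (log2 fold change -2.74, SE 0.57, adjusted p = 0.00666). *Car9*, the carbonic anhydrase of hypoxic tumor cells, was at 33.9, 36.05 and 11.98 with DOX+IL-17A and 272, 370.4 and 98.5 with IL-17A (log2 fold change -3.08, SE 0.79, adjusted p = 0.0194), and its adjusted p was 0.0745, 0.0577 and 0.0858 without DOX+IL-17A replicate 5, IL-17A replicate 2 and IL-17A replicate 3. *Pdk1*, which keeps pyruvate out of mitochondria, was also called lower, whereas the transcript of the factor's own subunit *Hif1a* was at 158, 111 and 97.3 with DOX+IL-17A and 106, 67.6 and 95.6 with IL-17A (0.43, adjusted p = 0.422). Without both replicate 5 libraries 9 glycolysis and 9 hypoxia genes fell, and without IL-17A replicate 3, the lowest count among the single libraries left out for the hypoxia list, 8 hypoxia genes fell.

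The promoters of *Car9* and *Pgk1* are shown for the hypoxia response element, ACGTG on either strand. It was present in the window of 11 of the 19 hypoxia genes and 10 of the 20 glycolysis genes with a window, against 19.7% of 27025 genes. Among called members it was present in 6 of 9 hypoxia genes, a larger share than in that list, and in 4 of 12 glycolysis genes, a smaller share than in theirs. *Pgk1*, phosphoglycerate kinase, chosen after its values were seen, was at 475, 364 and 579.8 with DOX+IL-17A and 1347, 1638 and 1771 with IL-17A (log2 fold change -1.76, SE 0.28, adjusted p = 0.00145).
Car9, chr4:43506876-43507025, plus strand: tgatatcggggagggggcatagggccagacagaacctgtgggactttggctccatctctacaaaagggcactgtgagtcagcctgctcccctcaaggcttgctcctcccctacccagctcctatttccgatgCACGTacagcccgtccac
Pgk1, chrX:106186950-106187099, plus strand: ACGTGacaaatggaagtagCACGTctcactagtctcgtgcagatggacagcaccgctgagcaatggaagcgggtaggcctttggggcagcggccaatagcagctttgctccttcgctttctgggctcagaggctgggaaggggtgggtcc

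**Figure D3:**
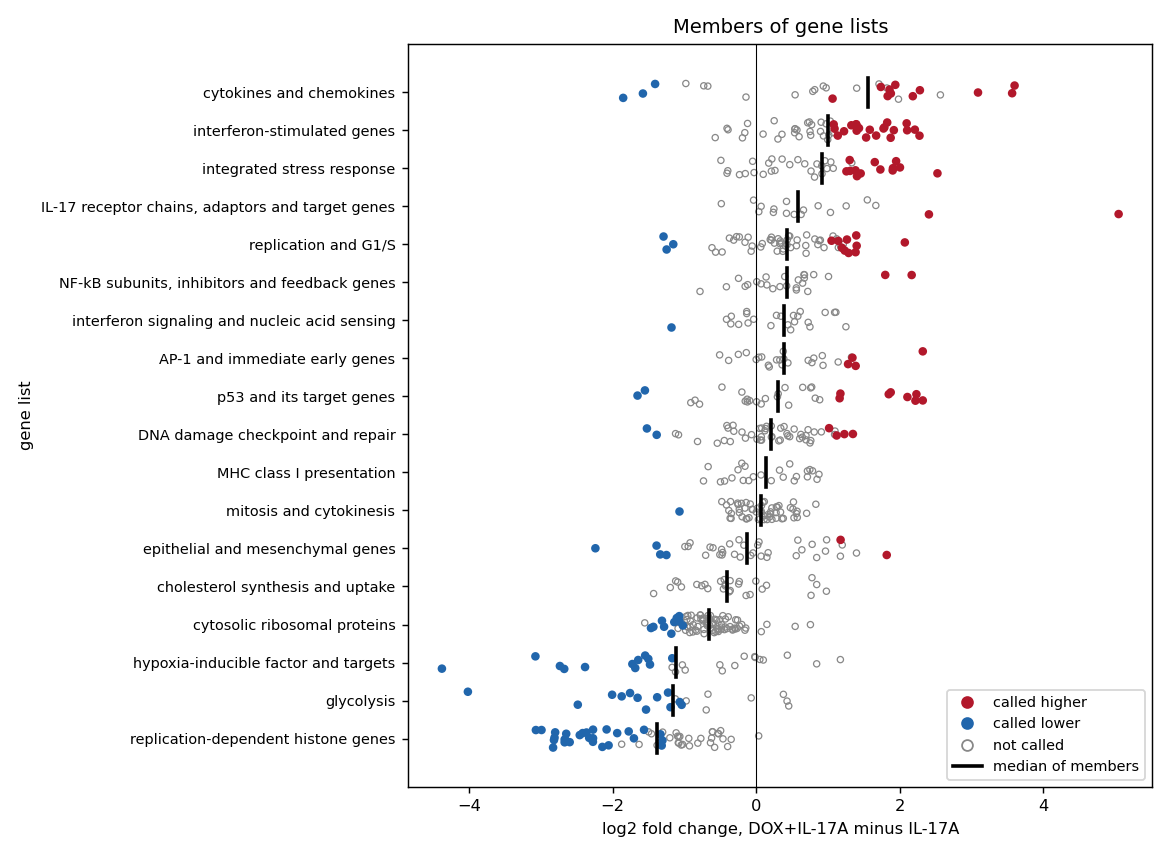
Log2 fold change of each tested member of 18 gene lists (horizontal axis, DOX+IL-17A minus IL-17A), with called genes in red (higher) or blue (lower), other members as open circles and the median of each list as a black bar. Cytokines have the highest median (1.55) and replication-dependent histone genes the lowest (-1.38).

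Of 31 genes of p53 and its targets, 8 rose and 2 fell (32.3% called, against 9.84% of all genes, median 0.31). The list names genes that p53 can induce, and whether p53 protein is functional in these cells was not tested. *Trp53*, the gene of p53, was at 10.02, 16.8 and 3.37 with DOX+IL-17A and 1.802, 1.41 and 1.72 with IL-17A (log2 fold change 1.85, SE 0.43, adjusted p = 0.0119), with an adjusted p of 0.056 without DOX+IL-17A replicate 3 and 0.0795 with voom. *Cdkn1a*, the cell cycle inhibitor p21 that p53 induces, was at 64.6, 64.8 and 94.3 with DOX+IL-17A and 54.1, 85.04 and 119 with IL-17A (-0.15, adjusted p = 0.769), and its direction turned with library size scaling (0.06) and without IL-17A replicate 5 (0.11). *Plk3*, a stress kinase, went from 3.21 ± 1.06 with IL-17A to 20.2 ± 6.23 with DOX+IL-17A (log2 fold change 2.32, SE 0.41, adjusted p = 0.00261). *Tigar*, a fructose bisphosphatase that lowers glycolysis, was at 34.2, 38.6 and 46.1 with DOX+IL-17A and 9.24, 6.602 and 7.14 with IL-17A (log2 fold change 2.23, SE 0.32, adjusted p = 0.000792). *Plk2* and *Sesn2* also rose, by 2.22 and 2.11. *Ddit4*, an inhibitor of mTORC1 that hypoxia also induces, fell from 569 ± 109 with IL-17A to 179 ± 28.4 with DOX+IL-17A (log2 fold change -1.65, SE 0.43, adjusted p = 0.0195), with adjusted p-values of 0.0757, 0.0633 and 0.0698 without DOX+IL-17A replicate 3, IL-17A replicate 3 and IL-17A replicate 5. *Sesn1* fell by 1.55 on the log2 scale (adjusted p = 0.0119, and 0.0547 without IL-17A replicate 3). The list had 4 risers and 1 faller without DOX+IL-17A replicate 3, and 5 and 1 without IL-17A replicate 3.

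Of 51 checkpoint and repair genes, 4 rose and 2 fell (median 0.21), and the share called, 11.8%, was near the 9.84% of all genes. Library size scaling gave 8 risers and 1 faller, and the fit without both replicate 5 libraries 1 of each. *Clspn*, which couples ATR to CHK1, went from 46.02 ± 5.28 with IL-17A to 102 ± 21.99 with DOX+IL-17A (log2 fold change 1.12, SE 0.26, adjusted p = 0.0116), although its fold change was below 2 without DOX+IL-17A replicate 5. *H2afx*, the histone variant phosphorylated at DNA breaks, fell from 58.98 ± 3.202 with IL-17A to 21.6 ± 10.7 with DOX+IL-17A (log2 fold change -1.52, SE 0.36, adjusted p = 0.0125), with an adjusted p of 0.108 without both replicate 5 libraries. *Fancm*, *Xrcc1* and *Ung* were called as well. *Fancm* lost the call in 8 of the 13 leave-one-out fits (up to 0.117), *Xrcc1* without DOX+IL-17A replicate 2 or 5 or any IL-17A library (up to 0.134), and *Ung* without DOX+IL-17A replicate 2 or 3 or IL-17A replicate 2 or 3 (up to 0.115). The list held 2 risers and 1 faller without DOX+IL-17A replicate 2 or IL-17A replicate 3.

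Of 58 replication and G1/S genes, 10 rose and 3 fell (22.4% called, median 0.43), against 16 and 1 with library size scaling. *Ccne1*, the cyclin E that starts S phase, was at 34.97, 40.5 and 32.5 with DOX+IL-17A and 10.7, 4.24 and 10.01 with IL-17A (log2 fold change 2.07, SE 0.40, adjusted p = 0.00468), and *Cdc6*, which loads the replicative helicase, at 82.2, 63.3 and 95.5 with DOX+IL-17A and 34.5, 29.1 and 25.4 with IL-17A (log2 fold change 1.40, SE 0.22, adjusted p = 0.00145). *Orc6* and *Rrm2* rose by 1.38 and 1.39 (adjusted p = 0.0281 and 0.0166), calls lost for *Orc6* without DOX+IL-17A replicate 2 or 3 or IL-17A replicate 3 or 5 (up to 0.12) and for *Rrm2* without DOX+IL-17A replicate 2 or IL-17A replicate 2 or 3 (up to 0.0662). *Rbl1*, of the retinoblastoma family, fell from 38 ± 5.28 with IL-17A to 15.1 ± 3.66 with DOX+IL-17A (log2 fold change -1.29, SE 0.28, adjusted p = 0.00811), with an adjusted p of 0.065 without both replicate 5 libraries. The inhibitor genes *Cdkn1b* and *Cdkn2c* were called lower, but not for *Cdkn1b* without any DOX+IL-17A library or IL-17A replicate 2 or 3 (up to 0.0908), and for *Cdkn2c* the call was lost in 9 of the 13 leave-one-out fits (up to 0.161). Without IL-17A replicate 3 the list had 5 risers and 1 faller, and without both replicate 5 libraries 5 risers and 0 fallers. Of 57 mitosis genes only the phosphatase gene *Cdc25b* was called, lower (-1.07, adjusted p = 0.0342), and not without DOX+IL-17A replicate 2 or 3 or IL-17A replicate 3 or 5 (up to 0.135), and the list's median was 0.07. The share of mitosis genes called was 1.75%, against 9.84% of all genes.

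Histone genes formed the list with the lowest median. Replication-dependent histone mRNAs mostly end in a stem-loop rather than a poly(A) tail, so a poly(A)-primed library measures their minor polyadenylated forms. Of 59 tested, 28 fell and none rose (47.5% called, against 9.84% of all genes), with a median of -1.38, and 58 had a negative log2 fold change. *Hist1h1e*, a linker histone, was at 15.3, 43.8 and 24.97 with DOX+IL-17A and 229, 221 and 219 with IL-17A (log2 fold change -3.07, SE 0.33, adjusted p = 7.38e-05). *Hist1h1c* was at 8.18, 3.57 and 1.69 with DOX+IL-17A and 29.1, 24.99 and 71.7 with IL-17A (log2 fold change -2.99, SE 0.47, adjusted p = 0.00126), and *Hist1h2ac* at 8.59, 7.94 and 9.99 with DOX+IL-17A and 49.9, 51.9 and 122 with IL-17A (log2 fold change -2.82, SE 0.41, adjusted p = 0.00078). *Hist1h2ah* fell by 2.83 on the log2 scale. IL-17A replicate 5 was the highest library for *Hist1h1c*, *Hist1h2ah* and *Hist1h2ac* but not for *Hist1h1e*, and 16 histone genes fell without both replicate 5 libraries. Reads of the near-identical core histone genes could be split among them, so single members are uncertain.

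Among 83 cytosolic ribosomal protein genes 10 fell and none rose (12.0% called, against 9.84% of all genes). The median was -0.66, or -0.44 under library size scaling, and 79 had a negative log2 fold change. *Rpl3* was at 404, 471 and 581 with DOX+IL-17A and 1329, 1272 and 1388 with IL-17A (log2 fold change -1.47, SE 0.21, adjusted p = 0.00074) and *Rpl17* went from 1218 ± 285 with IL-17A to 482 ± 53.99 with DOX+IL-17A (log2 fold change -1.31, SE 0.22, adjusted p = 0.00225). *Rps26* was called too, at 1822, 3015 and 5616 with DOX+IL-17A and 7810.3, 7414 and 7703 with IL-17A (-1.28, adjusted p = 0.028), and lost the call without DOX+IL-17A replicate 2 or 3 or any IL-17A library (adjusted p up to 0.124). Its DOX+IL-17A value was higher in replicate 5 than in replicates 2 and 3. The count of fallers was 3 without DOX+IL-17A replicate 2, 5 without DOX+IL-17A replicate 3 or IL-17A replicate 5, 18 without DOX+IL-17A replicate 5 and 16 without both replicate 5 libraries. No mitochondrially encoded transcript was in the table used here.

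The targets and handlers of DOX itself included 3 called genes of 22 (13.6%, near the share of all genes). *Top2b*, a topoisomerase II isoform that DOX acts on, was at 59.9, 73.6 and 98.4 with DOX+IL-17A and 214, 221 and 215 with IL-17A (log2 fold change -1.50, SE 0.20, adjusted p = 0.000401). *Top2a*, the isoform of dividing cells, was at 1289.6, 1543 and 1706 with DOX+IL-17A and 1280.3, 1750.4 and 2566 with IL-17A (-0.25, adjusted p = 0.545), groups that overlapped. *Abcg2*, an efflux pump for anthracyclines and other drugs, was at 37.6, 44.8 and 43.8 with DOX+IL-17A and 5.97, 7.07 and 9.11 with IL-17A (log2 fold change 2.37, SE 0.30, adjusted p = 0.000316). The reductase gene *Akr1b3* rose from 88.3 ± 47.05 with IL-17A to 233 ± 50.2 with DOX+IL-17A (log2 fold change 1.51, SE 0.38, adjusted p = 0.0179), with adjusted p-values between 0.052 and 0.0792 without DOX+IL-17A replicate 2 or 5 or IL-17A replicate 3 or 5. With the replicate block 3 genes of this list rose and 2 fell.

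Of 29 iron and antioxidant genes 2 rose and 2 fell (13.8%, near the 9.84% of all genes). *Tfrc*, the transferrin receptor that takes up iron, was at 366, 353 and 269 with DOX+IL-17A and 171, 139 and 108 with IL-17A (log2 fold change 1.25, SE 0.25, adjusted p = 0.00587), and the iron transporter gene *Slc11a2* rose by 1.53 (adjusted p = 0.0269, lost without DOX+IL-17A replicate 2 or 5 or IL-17A replicate 3 or 5, up to 0.112). *Srxn1*, which restores oxidized peroxiredoxins, fell from 67.8 ± 15.5 with IL-17A to 23.01 ± 10.6 with DOX+IL-17A (log2 fold change -1.60, SE 0.35, adjusted p = 0.00864), with an adjusted p of 0.0577 without both replicate 5 libraries. The heme transporter gene *Slc48a1* was called lower (-1.06, adjusted p = 0.0175), a call lost without DOX+IL-17A replicate 2 or 3 or IL-17A replicate 5 (up to 0.0845) and, through a fold change under 2, with library size scaling. The list held 1 riser and 1 faller without DOX+IL-17A replicate 2 or IL-17A replicate 5.

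Of 28 cholesterol synthesis and uptake genes 0 were called by limma, voom or edgeR and 1 by DESeq2 (median -0.40, with 7 at an unadjusted p under 0.05 in limma), and *Pmvk* and *Fdft1*, enzymes of the pathway, had log2 fold changes of -1.43 and -1.12 (adjusted p = 0.0665 and 0.0699). With the replicate block 5 of the list fell, among them *Pmvk* (adjusted p = 0.0155) and *Fdft1* (0.0206). Of 31 apoptosis and necroptosis genes *Casp4* and *Cycs* rose and *Bmf* fell, and the share called, 9.68%, was that of all genes (9.84%). *Cycs*, the gene of cytochrome c, was at 411, 378 and 452 with DOX+IL-17A and 148, 107 and 141 with IL-17A (log2 fold change 1.65, SE 0.31, adjusted p = 0.00386). *Casp4*, a caspase that senses lipopolysaccharide, rose by 1.67 (adjusted p = 0.0167, but 0.055 with voom, 0.0796 with edgeR, 0.0622 without DOX+IL-17A replicate 2 and 0.0856 without IL-17A replicate 3). *Bmf*, a proapoptotic BH3-only gene, had an adjusted p of 0.0499, 0.0727 with the replicate block and up to 0.189 in the 9 of 13 leave-one-out fits that lost the call. Its call was also lost with voom (0.0853), edgeR (0.151), DESeq2 (0.082) and a pseudocount of 0.1 (0.165). The same held with library size scaling (0.078) and with all listed genes kept (0.0517).

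Of 26 AP-1 and immediate early genes 4 rose (15.4% called, against 9.84% of all genes). *Fos* was at 14.1, 16.7 and 10.7 with DOX+IL-17A and 2.93, 1.57 and 1.48 with IL-17A (log2 fold change 2.32, SE 0.46, adjusted p = 0.0053), and *Ier5* went from 53.4 ± 17.4 with IL-17A to 132 ± 10.7 with DOX+IL-17A (log2 fold change 1.34, SE 0.28, adjusted p = 0.00713), with an adjusted p of 0.0599 without both replicate 5 libraries. *Mafk* and *Maff*, small Maf transcription factors, rose by 1.39 and 1.28, calls lost for *Mafk* without DOX+IL-17A replicate 2 or IL-17A replicate 3 (up to 0.0604) and for *Maff* in 8 of the 13 leave-one-out fits (up to 0.167), and without IL-17A replicate 3 only 2 genes of the list rose. Of 29 Notch and BMP genes 2 rose and 5 fell (24.1% called). Besides *Jag1*, *Id1*, a target of BMP signaling, was at 188, 146 and 107 with DOX+IL-17A and 35.4, 32.7 and 39.05 with IL-17A (log2 fold change 1.98, SE 0.28, adjusted p = 0.000709). The related gene *Id2* moved the other way, from 224 ± 54.9 with IL-17A to 91.9 ± 21.97 with DOX+IL-17A (log2 fold change -1.27, SE 0.28, adjusted p = 0.00834), with an adjusted p of 0.0611 without both replicate 5 libraries. *Rbpj*, the DNA-binding partner of Notch, was at 264, 357 and 444 with DOX+IL-17A and 880.4, 872 and 1052 with IL-17A (log2 fold change -1.42, SE 0.20, adjusted p = 0.000682). *Bmp7* and *Notch4* were called lower, with losses in 6 (up to 0.0965) and 9 (up to 0.175) of the 13 leave-one-out fits. *Notch4* held only 3 reads in all over the DOX+IL-17A libraries. Its call was also lost with voom (0.072), edgeR (0.0574) and library size scaling (0.0552). That of *Bmp7* was lost with edgeR (0.0555), library size scaling (0.0504) and a pseudocount of 0.1 (0.0511). The list held 2 fallers without DOX+IL-17A replicate 2, IL-17A replicate 3 or IL-17A replicate 5.

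Of 38 epithelial and mesenchymal genes 2 rose and 4 fell (15.8% called, against 9.84% of all genes), and the fallers were epithelial. *Krt19*, a simple epithelial keratin, was at 43.8, 45.8 and 53.2 with DOX+IL-17A and 165, 268 and 268 with IL-17A (log2 fold change -2.24, SE 0.28, adjusted p = 0.000241). *Epcam*, the epithelial adhesion molecule, was at 208, 163 and 124 with DOX+IL-17A and 434, 383 and 413 with IL-17A (log2 fold change -1.34, SE 0.24, adjusted p = 0.00261). *Itgb4*, which anchors cells to the basement membrane, went from 84.3 ± 10.6 with IL-17A to 32.4 ± 10.3 with DOX+IL-17A (log2 fold change -1.39, SE 0.24, adjusted p = 0.00261), and *Krt18* from 291 ± 73.9 with IL-17A to 129 ± 64.2 with DOX+IL-17A (log2 fold change -1.25, SE 0.28, adjusted p = 0.00905), although the fold change of *Krt18* was below 2 without DOX+IL-17A replicate 3. The basal keratin gene *Krt14* rose by 1.18 (adjusted p = 0.0266), a call lost without DOX+IL-17A replicate 2 or 5 or IL-17A replicate 2 or 3 (up to 0.102). In bulk RNA a lower level of an epithelial gene in each cell and fewer cells that express it cannot be told apart. Markers of other cell types that passed the test were low, with *Ptprc*, the leukocyte gene of CD45, at 2.45, 3.57 and 2.996 with DOX+IL-17A and 0, 0.314 and 0.246 with IL-17A, *Ttn* of muscle at 6.13, 8.64 and 4.18 with DOX+IL-17A and 1.24, 0.629 and 0.902 with IL-17A and *Dcn* of fibroblasts at 1.43, 2.38 and 2.43 with DOX+IL-17A and 0.113, 0 and 0.08204 with IL-17A. The calls of *Ttn* and *Dcn* were lost without DOX+IL-17A replicate 3 or IL-17A replicate 3 (up to 0.0587). Their part in the other results was not tested.

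The DOX effect without IL-17A is the difference between DOX and control libraries, none of which is in the difference between DOX+IL-17A and IL-17A. Both were tested in the same fit with 1 estimate of each gene's spread from all 13 libraries, so the calls of the lists are not independent of each other. DOX alone raised 1127 genes (9.15%) and lowered 761 (6.18%) relative to control. Of the 606 genes that rose with IL-17A present, 385 were also called higher without it, which is 63.5% of the former and 34.2% of the latter list. For falling genes the overlap was 365, or 60.2% and 48.0%, and 0 genes were called in opposite directions. Across the 12319 genes the log2 fold changes had a Pearson correlation of 0.718 and a Spearman correlation of 0.690, as a description, since genes are not independent replicates. The medians of glycolysis genes were -1.16 with IL-17A and -1.22 without it, those of histone genes -1.38 and -1.29, and those of stress response genes 0.91 and 0.89. DOX replicate 1 held more muscle and red blood cell marker signal than the other DOX libraries (summed values of 309 against 24.8 to 47.7, and 66.5 against 1.34 to 5.47). Control replicate 1 likewise held more than the other control libraries (56 against 14.03 and 25.39 for muscle, and 14.38 against 0.943 and 7.185 for red blood cells).

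**Figure D4:**
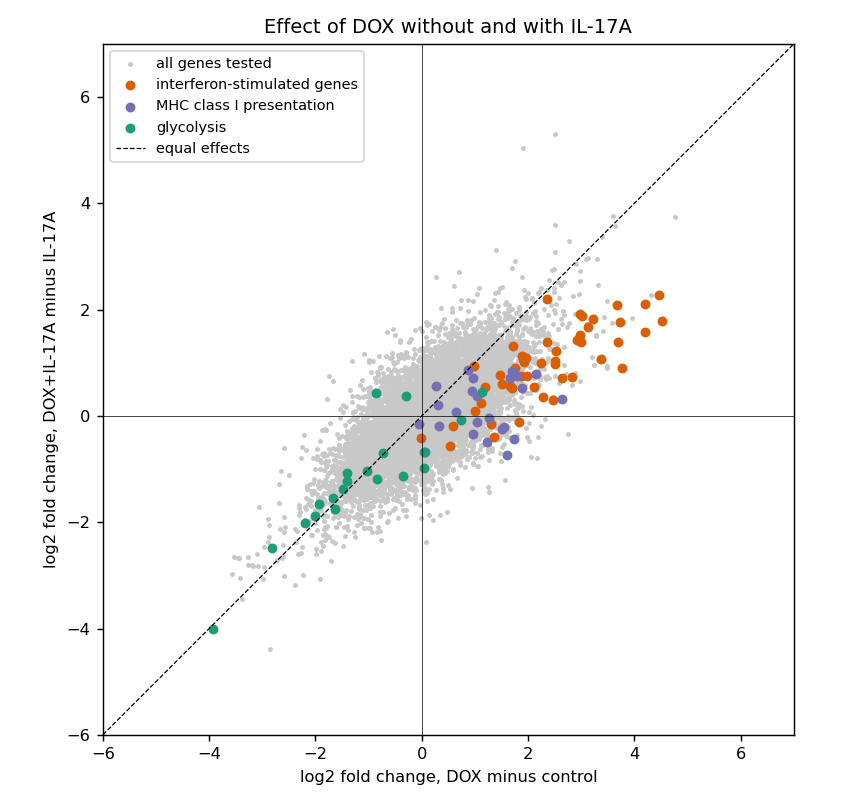
Log2 fold change of each of the 12319 tested genes for DOX against control (horizontal axis) and for DOX+IL-17A against IL-17A (vertical axis), with interferon-stimulated, MHC class I and glycolysis genes colored and the dashed line marking equal effects. All 49 interferon-stimulated genes lie below the line, and the glycolysis genes that fell most lie close to it.

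The difference between these effects was itself tested for each gene, and 0 of 12319 genes passed an adjusted p of 0.05 with limma (smallest 0.173), while 556 (4.51%) had an unadjusted p under 0.05. Voom and edgeR called 0 genes, and DESeq2 called 18, all with a lower log2 fold change with IL-17A than without it. Of these 18, 7 were in the list of interferon-stimulated genes and the rest were not. The 18 included *Isg15*, *Zbp1*, *Ifi44*, *Rsad2*, *Irf7* and *Cd274*. All 49 interferon-stimulated genes had a smaller log2 fold change with IL-17A than without it, 39 of them at an unadjusted p under 0.05 (32 with the replicate block, 39 without DOX replicate 1). The count with a library left out fell to 28 without DOX replicate 3 or DOX replicate 4, and it was 27 without both replicate 5 libraries. DOX called 44 of these genes higher in cells without IL-17A (median 2.27), against the 21 in cells with it (median 0.996). Of the 24 MHC class I presentation genes, 22 had a lower log2 fold change with IL-17A, 9 of them at an unadjusted p under 0.05, and 13 were called higher by DOX alone (median 1.13).

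The 5 genes with the smallest p for the difference were *Rsad2*, *U90926*, *Psmb8*, *Gbp2b* and *Cd274*. Mean *Rsad2* was 226 ± 61.1 (SD, n = 4) with DOX, 15.3 ± 2.95 (SD, n = 3) in control, 42.2 ± 25.2 with DOX+IL-17A and 19.9 ± 2.95 with IL-17A, a difference of -2.87 on the log2 scale. *Psmb8*, an immunoproteasome subunit, was at 152 ± 24.1 with DOX and 54.5 ± 17.8 in control, but at 57.3, 57.6 and 55.5 with DOX+IL-17A and 72.5, 73.7 and 58.5 with IL-17A, with each DOX+IL-17A library lower than each IL-17A library (difference -1.76). *Gbp2b*, an interferon-induced GTPase, was at 111 ± 35.1 with DOX, 28.2 ± 12.2 in control and 39.7, 39.4 and 31.9 with DOX+IL-17A and 47.4, 34.9 and 49.6 with IL-17A (difference -2.20). *U90926* differed the other way, with 5.75 ± 2.25 in DOX and 0.157 ± 0.272 in control against 47.2 ± 4.1 and 0.247 ± 0.335 in the groups with IL-17A (difference 2.79). None of the 5 passed the adjusted test, so a difference between the effects was not shown for any single gene by limma. Without DOX+IL-17A replicate 2 *Rsad2* passed it.

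**Figure D5:**
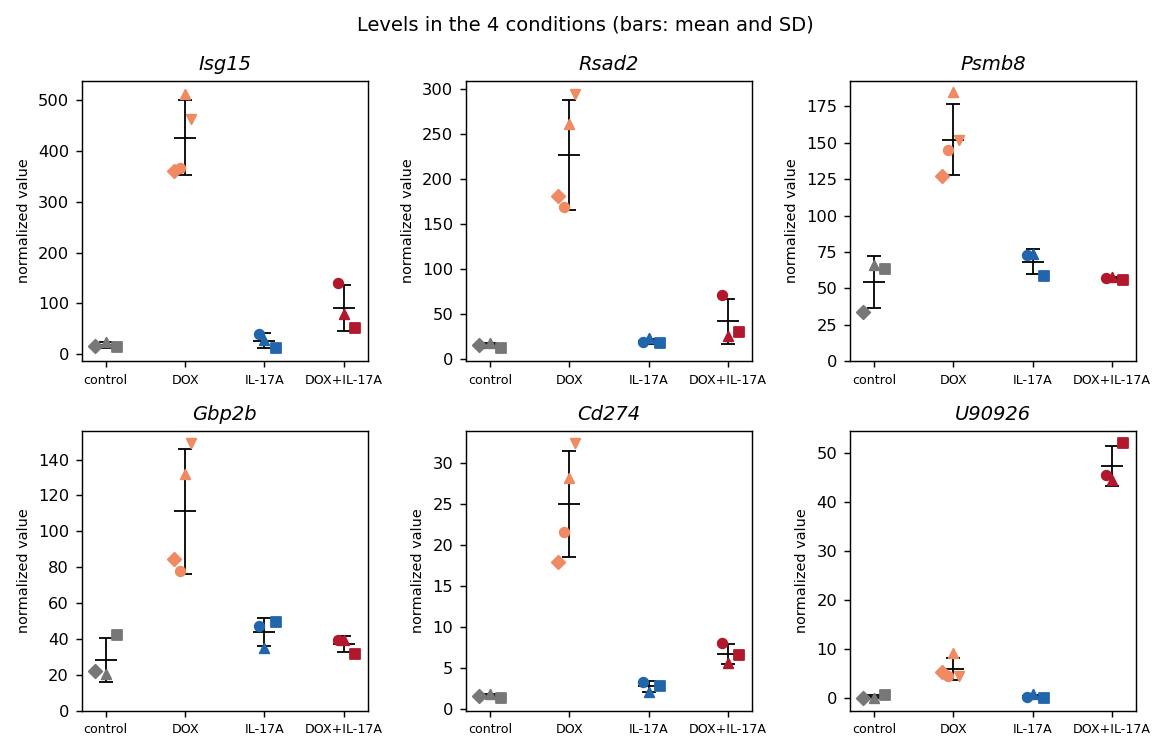
Normalized value of *Isg15*, *Rsad2*, *Psmb8*, *Gbp2b*, *Cd274* and *U90926* (vertical axes) in every library of the 4 conditions (horizontal axes), with black bars for the mean and SD of 3 or 4 libraries. For *Isg15*, *Rsad2*, *Psmb8*, *Gbp2b* and *Cd274* the DOX libraries lie above all other libraries, and for *U90926* the DOX+IL-17A libraries do.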

How the data were processed

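Libraries were made by the authors with the QuantSeq 3′ FWD kit and sequenced as 75 base single reads, which were trimmed with Trimmomatic, aligned with STAR to mm10 and counted per gene with featureCounts. The deposited signal is the authors' TMM-normalized value of each gene. In every library the values (100%) were whole steps of 1 read (tolerance 0.001 of a step), so reads were recovered and used for filtering and for the count-based alternatives. Of 13223 entries 1 repeat was dropped, leaving 13222 genes, 17 of them under names turned into dates. Libraries were grouped by their labels.

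The main test was limma 3.58.1 with trend on log2(value + 1), with all 13 libraries and condition as the only factor, on the 12319 genes kept by edgeR's filterByExpr. P-values were adjusted by Benjamini-Hochberg over these genes, and a call needed an adjusted p under 0.05 together with a change of more than 2-fold, while the difference of the DOX effects needed only the adjusted p. The pseudocount of 1 understates fold changes of low genes. Chi-square per degree of freedom between replicates was 16.2 to 96.6, more than sampling noise. Same-numbered DOX+IL-17A and IL-17A libraries deviated together from their group means. Correlations across genes were 0.168, 0.203 and 0.355 for replicates 2, 3 and 5, against -0.279 to 0.119 for unlike numbers. Centering each group on its mean makes positive values for like numbers force lower ones for unlike numbers. Replicate 2 (0.168) was near the highest unlike value, that of DOX+IL-17A replicate 2 with IL-17A replicate 3 (0.119). The numbers may thus pair the libraries, and a replicate block was an alternative. Standard errors and p-values are from the fit without the block unless stated. The pairing comes from the numbers in the labels.

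Named genes were the 10 largest rises and 10 largest falls among called genes that did not overlap and had a mean over the 6 libraries at or above the median of genes tested, up to 4 called risers and 4 called fallers of each gene list (the 2 smallest p where none was called), *Cd274*, *Il17ra*, *Il17rc*, *Trp53*, *Cdkn1a*, *Top2a*, and the 5 smallest p for the difference. Other genes named were chosen after their values were seen. Some genes that the rule chose are not reported here. The comparison and the lists were chosen with earlier results of these data known. Alternatives were scaling by library size, other filters, a pseudocount of 0.1, voom with limma, edgeR 4.0.16, DESeq2 1.42.0, a fit of the groups compared, the block, calls by adjusted p without the fold limit, and fits with each library omitted. Leaving out both replicate 5 libraries was added after the data were seen. Coordinates are from GENCODE M21 and promoter sequences from RefSeq (GRCm38.p6). Tests were checked on simulated data, on which DESeq2 made more false calls than limma, voom or edgeR. DESeq2 also recovered more of the true changes there, and every test missed most of the 2-fold ones. The simulation scored calls in DOX+IL-17A against IL-17A, not in the difference of the DOX effects. R 4.3.3 and python 3.11.15 were used.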

Additional observations from a re-analysis of the deposited data

Results flagged for a closer look

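*U90926* in the 4 libraries of DOX alone was flagged because 1 library stood away from the others. DOX replicate 3 was at 9.09, against 5.15 in replicate 1, 4.38 in replicate 2 and 4.38 in replicate 4, and the gap to its nearest neighbour was 0.836 of the whole range. About 1 in 20 groups are flagged in this way by chance. The 3 DOX+IL-17A libraries, at 44.4 to 51.9, lay above all 4.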

How the results depend on the processing

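The counts of called genes moved most with the scaling and with single libraries. Scaling by library size gave 1017 genes higher and 381 lower instead of 606 and 606. With 1 library left out the counts ranged from 295 to 813 higher and from 378 to 776 lower, and without both replicate 5 libraries they were 287 and 342. The difference of the DOX effects held 0 genes in the fit reported and 18 with DESeq2, and 0 to 1 with a library left out. The cause of these changes was not tested, and the fits with a library left out also had fewer libraries. The other settings gave 526 to 816 genes higher and 557 to 831 lower.

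Of the 98 called genes among the 112 chosen by rule, 52 kept their call in every alternative, 77 in every alternative that used all libraries, and 0 changed direction. With the replicate block, which pairs same-numbered libraries, 679 genes were higher and 678 lower, and 578 and 593 of these were among the 606 of each direction. In the block *Cd274* and *Bmf* lost their calls (adjusted p = 0.0521 and 0.0727), *Pmvk* and *Fdft1* gained one, and no other call of a gene chosen by rule changed. The block gave 0 genes for the difference. Genes that were not called changed sign in some fits. For *Apob* the log2 fold change was -0.45 with a pseudocount of 0.1, -0.86 with voom and -0.10 without both replicate 5 libraries. With 1 library left out, log2 fold changes ranged from -0.54 to 0.60 for *Apob*, from -0.26 to 0.090 for *Hba-a1*, from -0.12 to 0.68 for *Il17rc*, from -0.50 to 0.0056 for *Top2a* and from -0.45 to 0.11 for *Cdkn1a*, and the last was 0.065 with library size scaling. With 3 libraries a group and 4445592 to 16152120 reads, changes of low genes below the value of 3 reads were not detectable.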
